A study of Trametes versicolor and Gelatoporia subvermispora with 30 samples.

Results

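Syringic acid and 4-hydroxybenzoic acid (4HBA), both aromatic acids, were compared in Trametes versicolor, a white-rot fungus that breaks down the lignin of hardwood. The comparison set 3 libraries of mycelium given 2 mM syringic acid against 3 libraries given 2 mM 4HBA, chosen by their labels. Those 6 libraries are part of 15 from T. versicolor and of 30 in the series, whose other libraries come from a second white-rot fungus. All 6 libraries came from mycelium that also received 5 g cellobiose per litre in a defined Czapek-Dox medium. The dose and the sugar were thus matched, and the acid was the stated difference. The other T. versicolor groups, used here as neighbours, were cellobiose alone at the same dose, cellobiose with isolated poplar lignin at 25 mg per 25 mL, and milled poplar at 2 g per 25 mL with no cellobiose, with 3 libraries each. The labels give no strain and do not say whether the 3 libraries of a group were separate cultures, so a p-value here speaks of the spread among these libraries alone.

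Syringic acid is 4HBA with a methoxy group on each ring carbon beside the hydroxyl group. It is related to the syringyl units of hardwood lignin, while 4HBA occurs as a pendant ester on the lignin of poplar. White-rot fungi open lignin with secreted heme peroxidases and laccases, and the aromatic acids that are released can be taken up and metabolised inside the hypha. Manganese peroxidase oxidises manganese ions that then attack phenols, lignin peroxidase oxidises nonphenolic aromatics, versatile peroxidase combines both activities, and laccase is a copper enzyme that oxidises phenols with oxygen. The title of the study asks about such pathways inside the cell.

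Both sets of libraries differed in make-up before any gene was tested. Gene counts were 23.3, 22.3 and 23.5 mega-counts (M) with 4HBA and 26.8, 16.7 and 22.8 M with syringic acid. In the 4HBA libraries 10 gene models took 41.7% to 47.3% of all gene counts, and in the syringic acid libraries the same 10 took 0.905% to 1.20%. These 10 are absent from the RefSeq gene table of the species, which lists the other 14560 of 14570 models, and no role is given for them here. Reads that the authors' counting could not align made up 21.9% to 23.4% of the total with 4HBA and 3.62% to 4.25% with syringic acid. The cellobiose libraries looked like those with 4HBA, at 41.6% to 48.1% in the 10 models, and the lignin and poplar libraries like those with syringic acid, at 0.995% to 1.18% and 0.448% to 1.14%. In the titles the sample numbers of the syringic acid and lignin libraries carry a low line and those of cellobiose, 4HBA and poplar do not. The labels name no batch or library type. Library type below means this make-up alone, with cellobiose and 4HBA set against syringic acid, lignin and poplar. The low line in the titles does not follow it for poplar. Library type in this sense and the acid change together between both acids. Their parts in any single difference cannot be told apart from the 6 libraries alone.

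**Figure D1:**
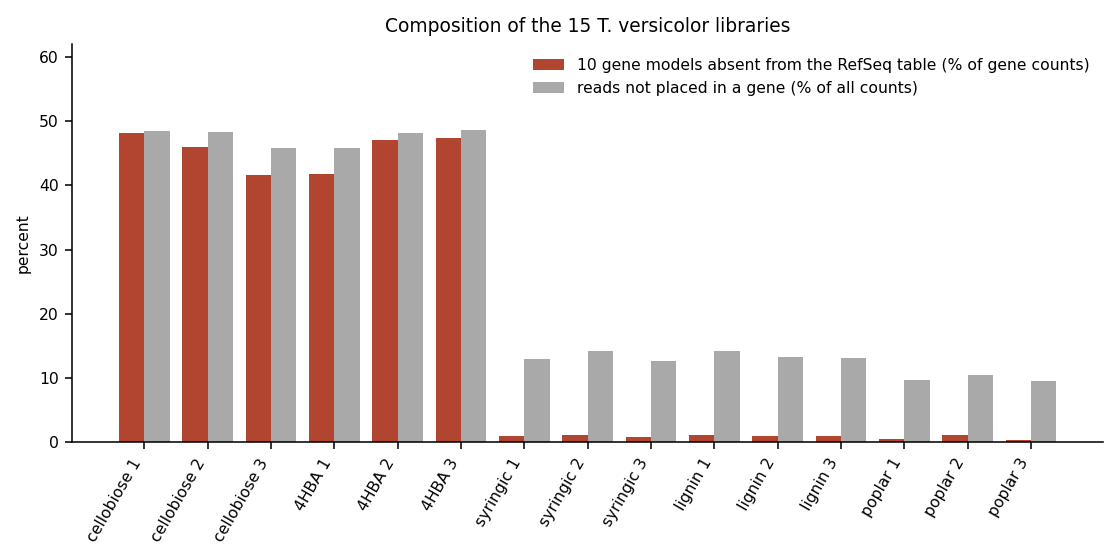
Composition of the 15 T. versicolor libraries, 1 pair of bars per library. Red bars give the percent of gene counts in the 10 gene models absent from the RefSeq table, grey bars the percent of all counts that were not placed in a gene; the 6 cellobiose and 4HBA libraries lie above 41% in red and the 9 others at 1.20% or below.

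A second value is therefore given beside the difference between the acids. It is the difference between syringic acid and lignin minus the difference between 4HBA and cellobiose, called the 4-group difference below. Each acid is set there against a neighbour of its own library type, so a constant shift between types on the log scale cancels, while any response to lignin enters with a minus sign. All differences are log2 values from 1 fit of edgeR to the 15 libraries, and levels are CPM, read counts scaled to a library of common size with TMM factors. A gene was said to be higher or lower when its adjusted p from edgeR's quasi-likelihood test was below 0.05.

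The acids differed at a large share of the genes. Of 12295 genes tested, 5929 passed the test, or 48.2%, with 3227 higher with syringic acid (26.2%) and 2702 lower (22.0%). A change of at least 2-fold was reached by 532 higher genes (4.33%) and 375 lower genes (3.05%). With upper-quartile scaling the split became 4915 higher and 1868 lower, so the balance of directions depends on the scaling. The levels of the 3 and 3 libraries did not overlap for 6456 genes (52.5%). These were bulk libraries of whole mycelium, in which fewer hyphae expressing a gene and less RNA per hypha cannot be told apart.

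Lignin against cellobiose, a comparison that shares no library with that between the acids, gave a like picture. It called 6138 genes (49.9%), 3313 of them higher with lignin (26.9%) and 2825 lower (23.0%). Of the 3227 genes higher with syringic acid, 2044 were higher with lignin too, which is 63.3% of the first list and 61.7% of the second. Of the 2702 lower genes, 1890 were lower with lignin, or 69.9% and 66.9% of the lists. Only 63 and 108 genes were called in opposite directions. Across the 12295 genes both sets of log2 differences had a Pearson r of 0.67 and a Spearman rho of 0.68, where genes are not independent replicates and both comparisons cross the same pair of library types. Against the neighbours of their own type the acids called fewer genes, 2011 for 4HBA against cellobiose (16.4%) and 1075 for syringic acid against lignin (8.74%). With 1 library left out these counts ran from 1265 to 1772 and from 525 to 2258, the first lowest without 4HBA replicate 1 and the second lowest without lignin replicate 1 and highest without syringic acid replicate 2. The 4-group difference called 1155 genes (9.39%), 552 higher (4.49%) and 603 lower (4.90%).

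**Figure D2:**
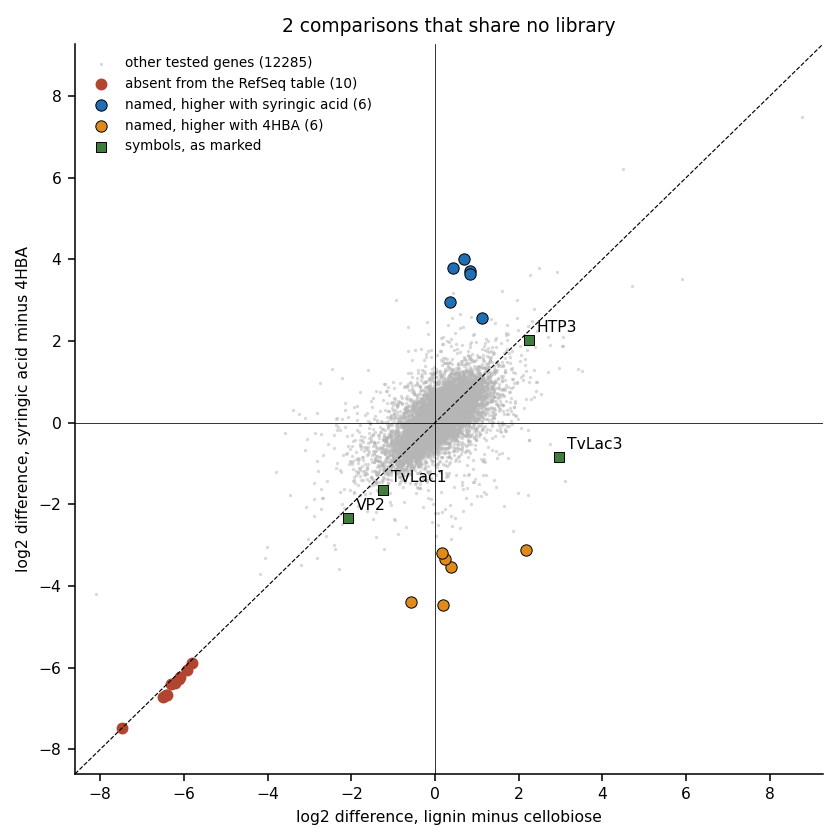
Each point is a tested gene, with its log2 difference between lignin and cellobiose on the x axis and between syringic acid and 4HBA on the y axis; the dashed line marks equal values. The cloud and the 10 absent gene models, between -7.47 and -5.89 on the y axis, follow the line. The 6 named genes higher with syringic acid and the 6 higher with 4HBA are marked. They have the largest differences between the acids among genes that met the naming thresholds and passed the 4-group test in the same direction. The 4-group difference is the vertical distance from the line, so their place off it was set by that condition.

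The 10 absent models were the largest falls that passed the naming thresholds. Their differences ran from -7.47 to -5.89 between the acids and from -7.48 to -5.81 between lignin and cellobiose. Against same-type neighbours they ran from -0.05 to 0.13 for 4HBA against cellobiose and from -0.19 to 0.11 for syringic acid against lignin, and none of the 10 passed the 4-group test, with a smallest adjusted p of 0.722 in edgeR, 0 at an unadjusted p below 0.05 and 0 called by DESeq2. By gene number they stand in 3 runs, 1 of 6 models and the others of 2 each. TRAVEDRAFT_137432 was at 164140.0, 191680.0 and 205360.0 CPM with 4HBA and at 901, 1300.4 and 969 CPM with syringic acid. Of the 10 genes with the most counts in either acid, 9 belong to this set, and the other is TRAVEDRAFT_57970, at 7306, 7174 and 7174 CPM with 4HBA and 2575, 2994 and 2378 CPM with syringic acid (difference -1.45, 4-group difference -0.10, not called).

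Among genes that met the naming thresholds (at least 10 CPM in the higher acid, no overlap, the same call with the 6 libraries alone) and passed the 4-group test, several of the largest rises were at their highest with syringic acid. The reference table gives no product for any of them, so they are named by locus tag. TRAVEDRAFT_69431 was at 11.9, 12.1 and 10.4 CPM with 4HBA and at 135, 208 and 208 CPM with syringic acid. Its 3 syringic acid libraries lay above every other library of the species, whose group means were 8.08 CPM on cellobiose, 13.0 with lignin and 29.7 on poplar. The difference was 4.00 (95% interval 3.64 to 4.37, adjusted p 1.14e-09 in edgeR), and the 4-group difference was 3.31 (adjusted p 5.42e-07). TRAVEDRAFT_20432 was at 12.9, 14.0 and 13.7 CPM with 4HBA and 138, 152 and 272 CPM with syringic acid, a difference of 3.79 (3.36 to 4.23). The cellobiose, lignin and poplar means of that gene lay between 10.6 and 18.9 CPM, and its 4-group difference was 3.36 (adjusted p 1.55e-06 in edgeR).

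A pair of neighbouring genes rose together. TRAVEDRAFT_27946 was at 9.50, 7.16 and 11.3 CPM with 4HBA and 104, 183 and 83.5 CPM with syringic acid. TRAVEDRAFT_19049, next to it in the reference table, was at 2.46, 1.50 and 2.69 CPM against 25.3, 38.6 and 19.2 CPM. In both genes syringic acid replicate 2 was the highest library and replicate 3 the lowest of its group, and no library of one acid reached the other acid's range. Their differences were 3.72 (3.06 to 4.39) and 3.63 (3.01 to 4.25), and their 4-group differences 2.90 and 2.79 (adjusted p 0.000314 and 0.000441 in edgeR). On milled poplar both were low, at means of 4.31 and 0.555 CPM.

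Smaller rises of the same kind followed. TRAVEDRAFT_66609 was at 8.66, 9.14 and 12.3 CPM with 4HBA and 46.0, 48.7 and 84.1 CPM with syringic acid (difference 2.57, 4-group difference 1.45). TRAVEDRAFT_115397 was at 2.89, 1.71 and 2.95 CPM against 14.8, 17.9 and 11.9 CPM (2.55 and 2.15), and TRAVEDRAFT_49029 at 4.69, 5.25 and 7.15 CPM against 28.9, 40.5 and 28.9 CPM (2.52 and 1.41). All 3 passed both tests and had no overlap between the acids. TRAVEDRAFT_40297 differed in another way: it was at 1.32, 1.64 and 2.30 CPM with 4HBA and 16.6, 11.6 and 11.9 CPM with syringic acid, but also at 7.57 CPM on cellobiose, 9.71 with lignin and 16.3 on poplar. The 4HBA libraries were the low ones there, 2.11 log2 units below cellobiose (adjusted p 0.000126 in edgeR), while syringic acid differed from lignin by 0.47 (adjusted p 0.172).

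For 2 further genes among the 10 largest rises that met the naming thresholds the 4-group test was not passed. The largest rise over all tested genes, 7.48, did not meet those thresholds. TRAVEDRAFT_135924 went from 0.721, 0.818 and 1.05 CPM to 6.01, 23.9 and 6.78 CPM, a difference of 3.80 that was 2.89 without syringic acid replicate 2. It was also higher with lignin than on cellobiose, by 2.48. TRAVEDRAFT_174721 went from 4.57, 17.1 and 8.72 CPM to 89.4, 49.8 and 38.5 CPM (2.56), with a lignin difference of 1.97. Their 4-group differences were 1.31 (-0.58 to 3.21) and 0.59 (-0.46 to 1.64).

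Other genes were at their highest with 4HBA. TRAVEDRAFT_61111 was at 208, 255 and 109 CPM with 4HBA and at 8.88, 9.26 and 7.96 CPM with syringic acid. Its cellobiose, lignin and poplar means, 6.40, 7.34 and 4.82 CPM, lay near the syringic acid level, so the 4HBA libraries were the 3 highest of the 15. The difference was -4.46 (-4.95 to -3.96, adjusted p 3.26e-09 in edgeR) and the 4-group difference -4.65 (adjusted p 4.68e-07). TRAVEDRAFT_50755 was at 843, 211 and 619.8 CPM with 4HBA and 16.0, 18.6 and 45.7 CPM with syringic acid, against 54.9 CPM on cellobiose, 36.9 with lignin and 1.41 on poplar. The difference was -4.38 (-5.34 to -3.42) and the 4-group difference -3.81 (adjusted p 0.000512 in edgeR).

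The next genes of this kind shared a pattern among the replicates. TRAVEDRAFT_50752 was at 23.6, 8.05 and 18.8 CPM with 4HBA and 1.43, 1.23 and 1.64 CPM with syringic acid (difference -3.54). TRAVEDRAFT_117172 was at 116, 40.8 and 98.0 CPM against 6.63, 6.52 and 11.9 CPM (-3.34), and TRAVEDRAFT_172513 at 76.6, 25.6 and 74.6 CPM against 5.32, 5.37 and 8.51 CPM (-3.20). In all 3, and in TRAVEDRAFT_50755, 4HBA replicate 2 was the lowest library of its group. Its level was 0.288 to 0.382 times the mean of replicates 1 and 3 in these 4 genes, while over all tested genes the median of that ratio was 0.989 and in TRAVEDRAFT_61111 it was 1.61. Without 4HBA replicate 2 the difference was -4.77 for TRAVEDRAFT_50755, -3.88 for TRAVEDRAFT_50752, -3.68 for TRAVEDRAFT_117172 and -3.56 for TRAVEDRAFT_172513. Their 4-group differences lay between -3.93 and -3.36, and each passed the test.

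TRAVEDRAFT_46296 was also higher with lignin than on cellobiose, by 2.18. It was at 143, 43.6 and 150.2 CPM with 4HBA, at 8.47, 11.0 and 19.2 CPM with syringic acid, and on average at 23.3 CPM with lignin and 5.16 CPM on cellobiose. The difference between the acids was -3.12 (-3.91 to -2.34), and the 4-group difference, to which the rise with lignin adds, was -5.31 (adjusted p 1.16e-05 in edgeR).

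Other large falls were not called in the 4-group difference. TRAVEDRAFT_63826 was at 367, 332 and 335 CPM with 4HBA and 38.3, 17.2 and 37.0 CPM with syringic acid, a difference of -3.48 (-4.31 to -2.65). It stood at 241 CPM on cellobiose, 26.1 CPM with lignin and 2978 CPM on poplar. TRAVEDRAFT_143379 was at 179, 151 and 168 CPM against 20.7, 9.98 and 18.7 CPM (-3.33), with means of 127 CPM on cellobiose and 595 on poplar and a lignin difference of -2.82. TRAVEDRAFT_110790 was at 62.1, 67.5 and 53.3 CPM against 5.27, 3.26 and 6.44 CPM (-3.59), with means of 24.0 CPM on cellobiose, 4.89 with lignin and 1560.3 on poplar. In that gene 4HBA was above cellobiose by 1.34 (adjusted p 0.009 in edgeR). These 3 genes were highest on poplar, which was given without cellobiose, and the part of library type in their falls was not tested. The 4-group differences were -0.27 (-1.35 to 0.81), -0.51 (-1.47 to 0.46) and -1.30 (-2.32 to -0.28), with adjusted p 0.818, 0.567 and 0.112 in edgeR. TRAVEDRAFT_54400 was at 188, 57.6 and 161 CPM with 4HBA and 6.32, 11.1 and 23.7 CPM with syringic acid (-3.31), with means of 84.5 CPM on cellobiose, 5.08 with lignin and 0.858 on poplar. Its difference was -3.99 without syringic acid replicate 3, the lignin difference was -4.05, and the 4-group difference was 0.75 (adjusted p 0.512 in edgeR). In TRAVEDRAFT_46296 and TRAVEDRAFT_54400 too 4HBA replicate 2 was low, at 0.297 and 0.33 times the mean of the other two.

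Some genes differed in the same direction with both acids when each acid was set against its own neighbour. These 2 comparisons share no library. The neighbour of syringic acid held lignin, so a response to lignin alone can also place a gene in the syringic acid lists. Of 1107 genes higher with 4HBA than on cellobiose (9.00% of those tested) and 589 higher with syringic acid than with lignin (4.79%), 146 were in both lists (1.19%), which is 13.2% of the first and 24.8% of the second. Of 904 and 486 lower genes (7.35% and 3.95%), 104 were shared (0.846%), or 11.5% and 21.4%. In opposite directions, 77 genes were higher with 4HBA and lower with syringic acid, and 58 the reverse. Without syringic acid replicate 2 the shared counts were 244 and 191, and without replicate 3 they were 87 and 60.

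The genes named for these shared changes were chosen after their values had been seen. TRAVEDRAFT_45010 was at 232, 84.8 and 120.3 CPM with 4HBA and 23.5, 23.1 and 16.9 CPM with syringic acid, while cellobiose and lignin were at 2.32 and 2.36 CPM. It rose by 5.98 with 4HBA and by 3.16 with syringic acid, and the acids differed by -2.78 (-3.36 to -2.21). TRAVEDRAFT_170215 was at 1154, 1655 and 848 CPM with 4HBA and 140.5, 159.9 and 203 CPM with syringic acid, with rises of 4.91 and 1.66 over 40.5 and 53.1 CPM. TRAVEDRAFT_171817 was at 211, 258 and 316 CPM against 51.3, 120.2 and 115 CPM, with rises of 4.71 and 2.36. In these 3 genes every 4HBA library lay above every syringic acid library, and the 4-group differences of -2.82, -3.25 and -2.35 passed the test.

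In other shared rises the acids stood closer. TRAVEDRAFT_43547 was at 12.5, 8.46 and 7.28 CPM with 4HBA and 16.4, 5.69 and 14.4 CPM with syringic acid, over 0.933 and 1.78 CPM in the neighbours, with rises of 3.35 and 2.78. Its acids overlapped, and the difference was 0.38 with an interval from -0.24 to 1.00. TRAVEDRAFT_82705, its neighbour in the reference table, was at 15.6, 16.0 and 11.3 CPM against 29.5, 14.0 and 26.2 CPM, also with overlap, and rose by 2.72 and 1.82; the acids differed by 0.71 (0.15 to 1.26, adjusted p 0.0348 in edgeR). TRAVEDRAFT_131483 was at 61.4, 48.6 and 64.9 CPM against 32.5, 23.2 and 43.4 CPM, with rises of 4.08 and 2.69, a difference of -0.82 (-1.28 to -0.36) and a 4-group difference of -1.39 that passed the test.

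Among the shared falls, TRAVEDRAFT_21780 fell from 23.9 CPM on cellobiose to 1.68, 2.52 and 1.51 CPM with 4HBA and from 21.6 CPM with lignin to 4.40, 2.07 and 3.34 CPM with syringic acid, changes of -3.65 and -2.69. TRAVEDRAFT_71517 went from 676 to 149, 167 and 157 CPM and from 605 to 175, 327 and 118 CPM (-2.10 and -1.55), and its acids overlapped with a difference of 0.39 (-0.23 to 1.01). TRAVEDRAFT_98550 went from 86.8 CPM on cellobiose to 25.4, 34.8 and 25.1 CPM with 4HBA (-1.61). From 160 CPM with lignin it went to 68.8, 76.8 and 48.9 CPM with syringic acid (-1.31). Lignin itself was above cellobiose by 0.89, and syringic acid differed from cellobiose by -0.42, which was not called (adjusted p 0.125 in edgeR). The acids did not overlap and differed by 1.19 (0.70 to 1.68).

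**Figure D3:**
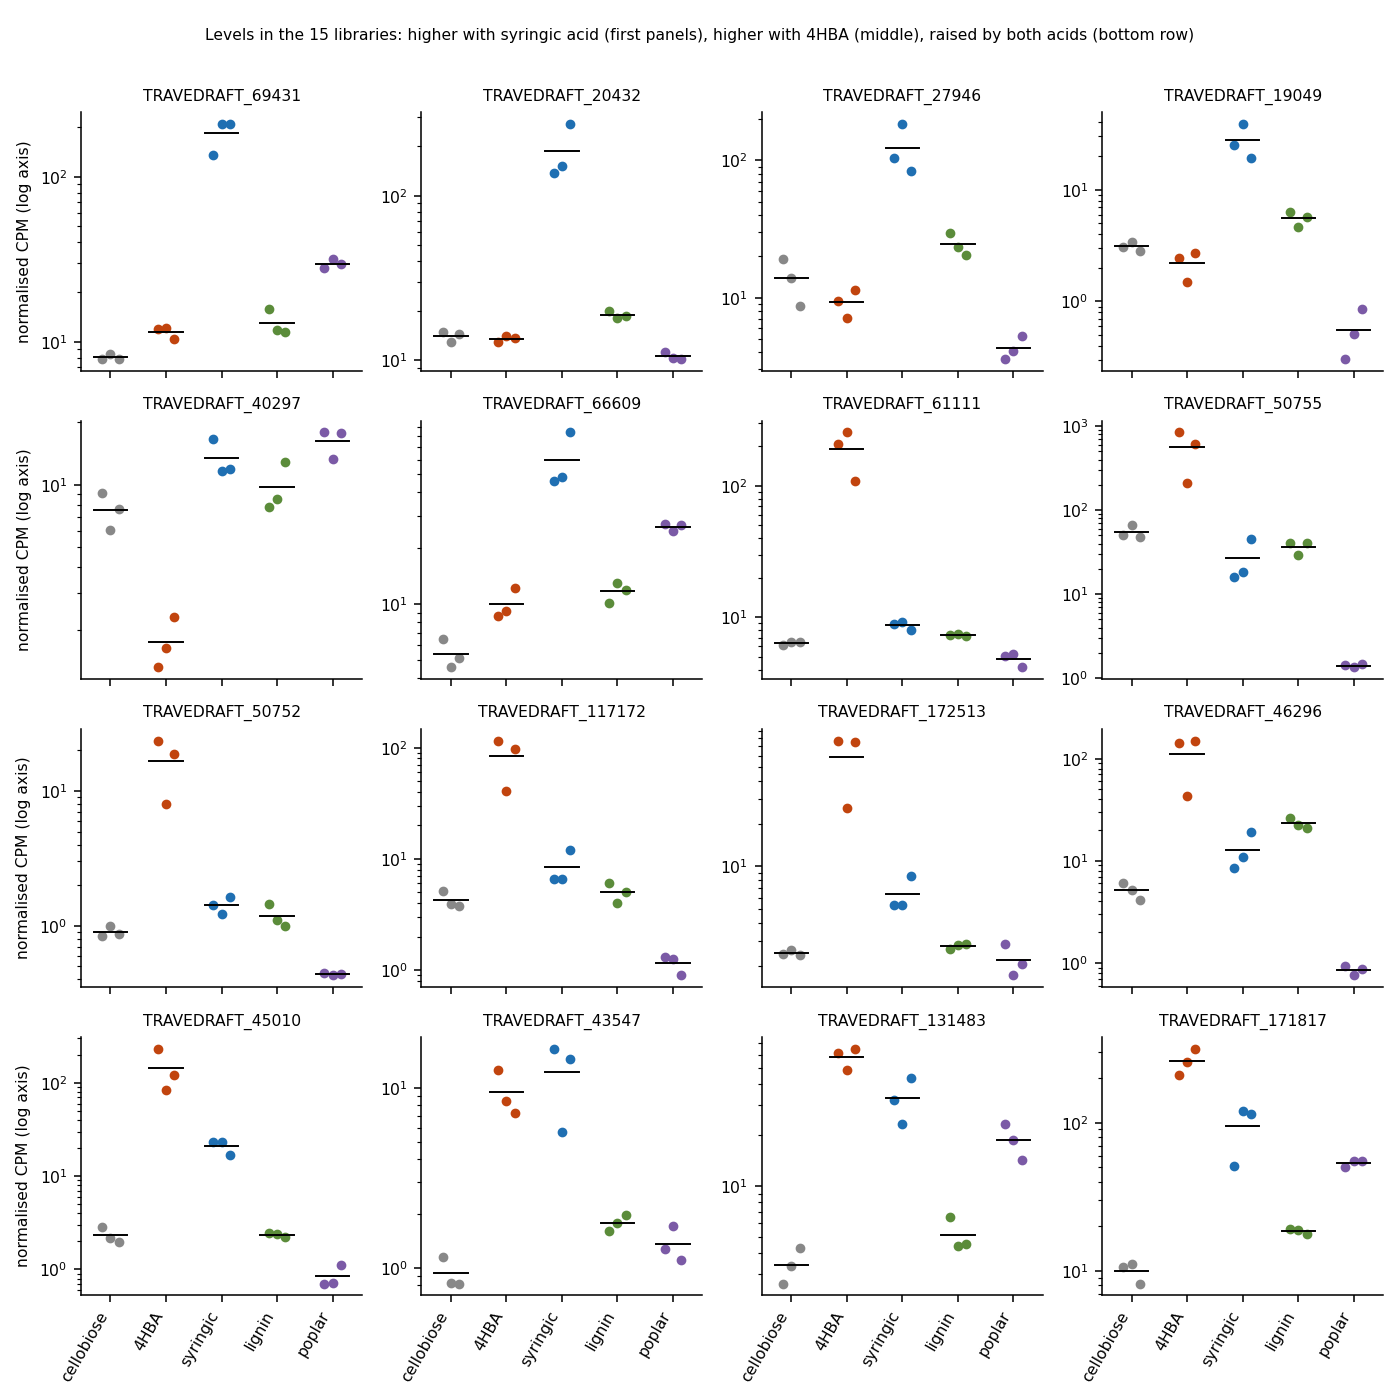
Normalised CPM on log axes for 16 genes in the 15 libraries; dots are libraries and black bars group means. The first 6 panels are the largest rises with syringic acid that met the naming thresholds and also passed the 4-group test. The next 6 are the largest with 4HBA under the same conditions. The last 4 were higher with both acids than in their same-type neighbours.

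Of the 42 genes with a symbol, all were tested. With syringic acid 12 were higher, 9 lower and 21 not called, beside 26.2% higher and 22.0% lower among all tested genes, and their median difference was 0.26 beside 0.10. Upper-quartile scaling gave 18 higher and 7 lower, and the 6 libraries alone 9 and 9. In the 4-group difference 6 were higher and 1 lower, beside 4.49% and 4.90%. Of the 12 higher symbols, 5 were also higher with lignin than on cellobiose and 3 lower; of the 9 lower symbols, 6 were lower and 1 higher. A symbol stands for the enzyme class that it abbreviates. Close copies in these families may share reads that the authors' counting split or dropped.

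The versatile peroxidase VP2 had the largest difference of any symbol. It was at 532, 478 and 627 CPM with 4HBA and 124, 75.5 and 126 CPM with syringic acid, with no overlap. The difference was -2.33 (-2.75 to -1.92, adjusted p 3.2e-07 in edgeR). Cellobiose and lignin means were 409 and 96.9 CPM, a difference of -2.08, and the 4-group difference was -0.25 (-0.81 to 0.31). VP3at was higher with syringic acid, at 2.17, 2.66 and 2.66 CPM against 1.44, 1.57 and 1.51 CPM (0.72, 4-group difference 0.30), a call lost in 4 of the fits that left out 1 library, and VP1 was not called (0.16, -0.57 to 0.89).

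Among 7 laccases 3 were lower with syringic acid and 1 higher, beside 22.0% lower and 26.2% higher among all tested genes. TvLac1 was at 257, 276 and 203 CPM with 4HBA and 102, 46.8 and 84.3 CPM with syringic acid, a difference of -1.65 (-2.14 to -1.17, adjusted p 3.31e-05 in edgeR). Its 4-group difference was -0.42 (-1.09 to 0.25). TvLac2 was at 18.8, 18.8 and 13.9 CPM against 11.7, 11.6 and 10.9 CPM (-0.59, 4-group difference -0.25), and TvLac4 was the higher one, at 18.3, 19.5 and 18.6 CPM against 15.3, 12.7 and 16.3 CPM (0.35, 4-group difference -0.34). The TvLac4 call was lost with the 6 libraries alone and without 4HBA replicate 2. TvLac5, TvLac6 and TvLac7 were not called, with differences from 0.30 to 0.61. Under upper-quartile scaling 4 laccases were called higher and 3 lower.

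TvLac3 was the only symbol with a negative 4-group call. It was at 279.6, 193 and 176 CPM with 4HBA and 126, 85.5 and 151 CPM with syringic acid, a difference of -0.84 (-1.44 to -0.23, adjusted p 0.0241 in edgeR). The groups did not overlap, but the call was lost without 4HBA replicate 1 (-0.61), syringic acid replicate 1 (-0.87) or syringic acid replicate 2 (-0.64). Cellobiose stood at 50.4 CPM and lignin at 392 CPM. Against them 4HBA was higher by 2.10 and syringic acid differed by -1.70, and the 4-group difference was -3.80 (-4.68 to -2.91, adjusted p 2.4e-05 in edgeR). The ferroxidase TvFet3A, a copper enzyme of iron uptake, was lower with syringic acid, at 119, 95.1 and 136 CPM against 185, 177 and 199.8 CPM (-0.68), with a 4-group difference of 0.25.

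Among 13 manganese peroxidases 3 were higher, 1 lower and 9 not called, with a median of 0.12. Of all tested genes 26.2% were higher and 22.0% lower. The counts were 1 and 2 with offsets by gene length, and 1 and 1 without replicate 1 of either acid. In the 4-group difference 3 were higher, beside 4.49% of all genes. MnP5s was at 40.3, 21.6 and 40.3 CPM with 4HBA and 18.1, 8.87 and 16.9 CPM with syringic acid, a difference of -1.21 (-1.85 to -0.57). It stood at 100.0 CPM on cellobiose and 20.9 CPM with lignin, and its 4-group difference was 1.04 (adjusted p 0.139 in edgeR). MnP3s was higher with syringic acid, at 10.7, 9.98 and 9.44 CPM against 5.17, 4.71 and 8.00 CPM (0.76, 0.39 to 1.13). Cellobiose was at 15.4 CPM and lignin at 4.46 CPM, so that 4HBA was below its neighbour by 1.37 log2 units and syringic acid above its own by 1.17, and the 4-group difference was 2.54 (adjusted p 5.73e-06 in edgeR).

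MnP1s was at 71.2, 43.1 and 53.4 CPM with syringic acid and 40.2, 41.1 and 29.6 CPM with 4HBA, a difference of 0.60 (0.13 to 1.07) beside a 4-group difference of 1.58 (adjusted p 0.00436 in edgeR). MnP6s was at 1.71, 1.43 and 1.61 CPM against 1.02, 0.750 and 1.31 CPM (0.63, 0.18 to 1.08, 4-group difference 0.85). The direct calls of MnP1s and MnP6s were each lost in 6 of the alternative fits, and that of MnP1s was 0.39 without syringic acid replicate 1. MnP4s did not differ between the acids by the test (0.32, -0.17 to 0.81) but passed the 4-group test at 1.32 (adjusted p 0.0143 in edgeR). MnP8s was not called (-0.02, -0.40 to 0.37). The groups of the remaining members MnP2s, MnP7s, MnP9s, MnP12s and MnP13 overlapped, and those of MnP10s and MnP11s did not, with differences of -0.26 and 0.26 that were not called.

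Among 10 lignin peroxidases 3 were higher, 1 lower and 6 not called, with a median of 0.28, beside 26.2% higher and 22.0% lower among all tested genes. LiP1 was at 10.5, 12.4 and 6.84 CPM with syringic acid and 4.51, 3.75 and 6.03 CPM with 4HBA, a difference of 1.05 (0.60 to 1.49). LiP12 was at 6.32, 5.49 and 4.18 CPM against 2.52, 2.05 and 3.28 CPM (1.03, 0.61 to 1.44). Both were higher with lignin than on cellobiose by a like amount, 0.95 and 1.00, and had 4-group differences of 0.10 and 0.02. LiP2 was at 3.25, 2.94 and 2.60 CPM against 1.68, 2.32 and 2.56 CPM (0.43, and 0.27 without 4HBA replicate 1), a call lost in 10 of the alternative fits, and its 4-group difference was 0.96 (adjusted p 0.0101 in edgeR). LiP3 was lower, at 3.17, 2.82 and 2.75 CPM against 3.61, 3.75 and 4.20 CPM (-0.39, 4-group difference -0.03), a call lost in 5 of the 6 fits that left out 1 acid library. LiP4, LiP5, LiP6, LiP8, LiP9 and LiP10 were not called, with differences from -0.16 to 0.44.

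The heme-thiolate peroxidases, broad oxidants of aromatics, were all called, 2 higher and 1 lower, beside 48.2% of all tested genes; 1 of the 3 passed the 4-group test. HTP3 was at 6.58, 18.9 and 4.43 CPM with syringic acid and 1.92, 3.34 and 2.03 CPM with 4HBA, a difference of 2.02 (1.01 to 3.02). It was 1.19 without syringic acid replicate 2, the highest library, and the lignin difference was 2.24, which left a 4-group difference of -0.22. HTP2, its neighbour in the table, was at 8.26, 8.39 and 6.96 CPM against 4.75, 3.89 and 4.13 CPM (0.88, 4-group difference 0.37). HTP1 was at 12.1, 10.9 and 12.0 CPM with syringic acid and 17.2, 13.0 and 17.9 CPM with 4HBA, lower by the test at -0.46 (-0.74 to -0.18). Because cellobiose was at 27.8 CPM and lignin at 7.07 CPM, its 4-group difference had the opposite sign, 1.51 (adjusted p 6.31e-05 in edgeR). LDO1 did likewise, at 54.5, 61.7 and 67.9 CPM against 112, 92.3 and 83.5 CPM (-0.65), with a 4-group difference of 1.11 (adjusted p 0.000793 in edgeR). The direction of these 2 genes thus depends on whether the acids are compared directly or each against its neighbour.

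DyP1, a dye-decolorizing peroxidase, was at 31.5, 51.8 and 21.8 CPM with syringic acid and 16.3, 16.2 and 12.7 CPM with 4HBA, a difference of 1.21 (0.62 to 1.81). Cellobiose and lignin were at 47.2 and 46.3 CPM and poplar at 17.7 CPM, and 4HBA was 1.65 log2 units below cellobiose (adjusted p 0.000849 in edgeR). The 4-group difference was 1.24 with an adjusted p of 0.0536 in edgeR. DyP2 was not called (0.16, -0.22 to 0.53). CCP1, the cytochrome c peroxidase, was at 489, 374 and 449.8 CPM against 339, 328 and 313 CPM (0.42, 4-group difference 0.29). LDO2 was not called (0.23).

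**Figure D4:**
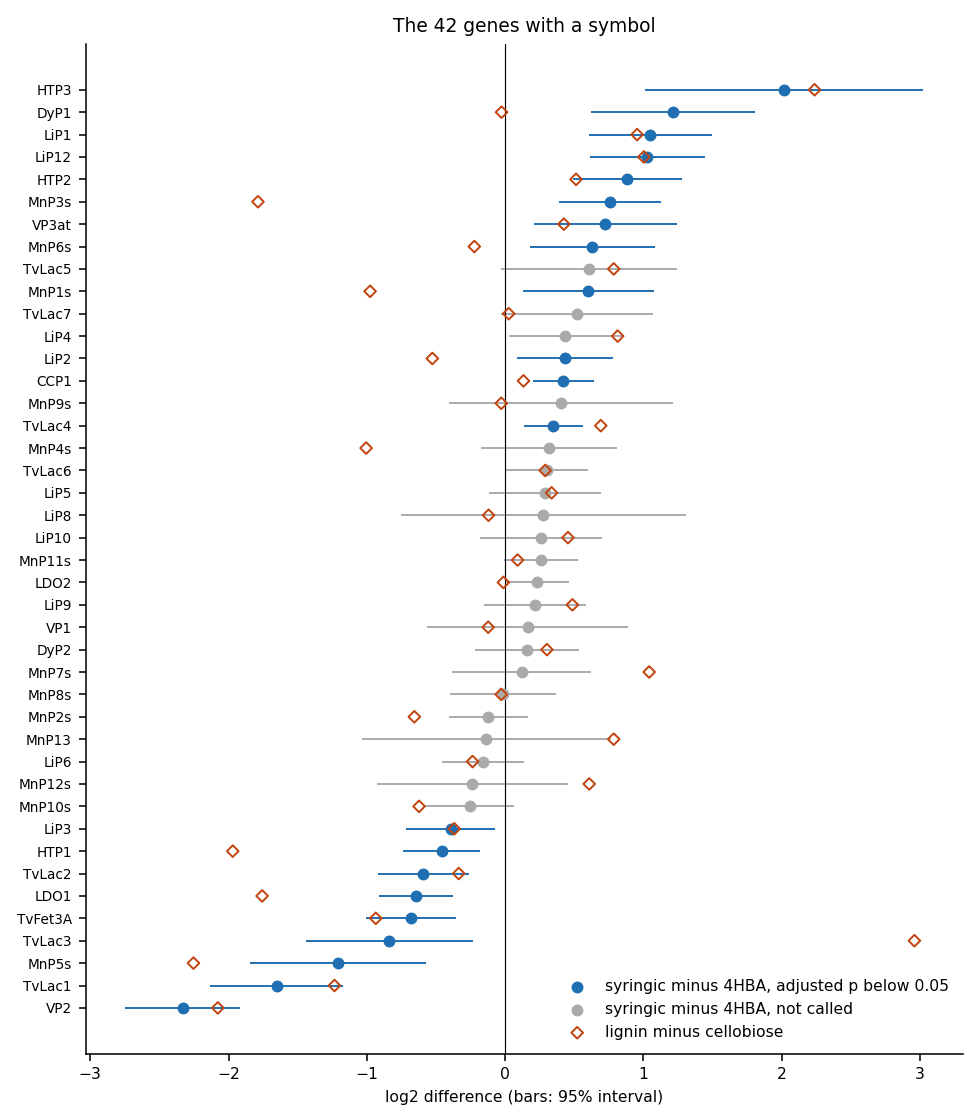
Log2 differences for the 42 genes with a symbol, sorted by the difference between syringic acid and 4HBA (dots with 95% intervals; blue, adjusted p below 0.05). Open diamonds give the difference between lignin and cellobiose; VP2, TvLac1, HTP3, LiP1 and LiP12 have both marks on the same side, while TvLac3, at -0.84, has its diamond at 2.96.

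Differences between the acids also went with gene length, the span of the gene in the RefSeq table. With the tested genes cut into 10 classes of near equal size, in the class of the shortest genes, 71 to 620 bp, the median was 0.36 and 416 genes were higher against 112 lower. In the class of the longest, 3406 to 34743 bp, it was -0.26 and 136 were higher against 631 lower. The medians of lignin against cellobiose ran from 0.29 to -0.22 over the same classes, while those of 4HBA against cellobiose ran from -0.06 to 0.04 and all those of syringic acid against lignin lay between -0.01 and 0.02. Of 268 transfer RNA genes only 15 passed the filter for low counts and were tested. Summed over these 15, levels were 1.77 to 3.55 CPM with 4HBA and 7.06 to 7.98 CPM with syringic acid. The filter can keep so low a gene through the groups where it is higher, so the split of their calls was in part set by it. With syringic acid 9 of the 15 were higher and 0 lower, beside 26.2% and 22.0% of all tested genes, with a median of 1.81. At an unadjusted p below 0.05 in edgeR 0 were lower, and DESeq2 called 0 lower. The 4-group test of edgeR called 0 of the 15, with 2 at an unadjusted p below 0.05, and DESeq2 called the 1 gene for which it gave an adjusted p. The part of library type in these trends was not tested.

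**Figure D5:**
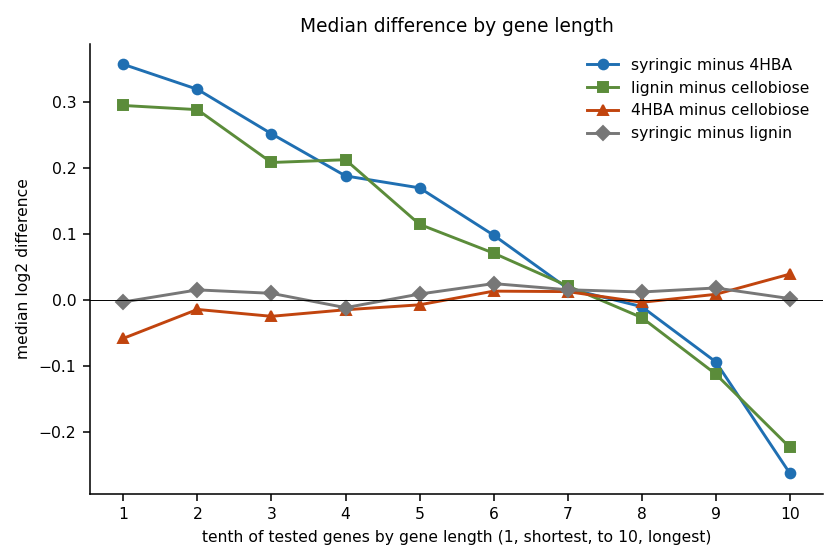
Median log2 difference for 10 classes of the tested genes by length, for 4 comparisons. Syringic acid against 4HBA and lignin against cellobiose fall from 0.36 and 0.29 to -0.26 and -0.22, while both comparisons within a library type stay between -0.06 and 0.04.

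Position in the reference table was compared as a description, with no test. Of 1059 neighbour places beside genes at least 2-fold higher with syringic acid, 84 held a gene that was 2-fold higher too (7.93%). The share over all genes in the table was 3.65%. Of 728 neighbour places beside 2-fold lower genes, 42 held a 2-fold lower gene (5.77%), beside 2.51%. In these counts a pair of adjacent genes that both changed is counted from each side. The longest run of higher genes held TRAVEDRAFT_47251, TRAVEDRAFT_71811, TRAVEDRAFT_47253 and TRAVEDRAFT_47254, with differences from 1.07 to 1.38. In the first 3 of these 4HBA was below cellobiose by 1.50 to 1.79 and syringic acid differed from lignin by -0.09 to 0.01. Their 4-group differences were 1.51, 1.61 and 1.70, and each passed the test. In TRAVEDRAFT_47254 lignin was above cellobiose by 1.07, and the 4-group difference was -0.001, not called. The genes of the run other than TRAVEDRAFT_71811 were low, with acid means of 0.941 to 3.12 CPM. TRAVEDRAFT_71811 was at 6.25, 5.73 and 4.92 CPM with 4HBA and 13.4, 21.4 and 9.50 CPM with syringic acid, and its means were 17.5 CPM on cellobiose, 14.9 with lignin and 2.34 on poplar.

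The longest run of lower genes held TRAVEDRAFT_116325, TRAVEDRAFT_27714, TRAVEDRAFT_27716 and TRAVEDRAFT_57372, with differences from -1.33 to -1.14. TRAVEDRAFT_57372 was at 738, 744 and 788 CPM with 4HBA and 292, 289 and 379 CPM with syringic acid, with a 4-group difference of -0.58 (adjusted p 0.0276 in edgeR). TRAVEDRAFT_116325 was at 17.3, 5.87 and 16.5 CPM against 5.76, 4.29 and 5.73 CPM and had a 4-group difference of -1.60 (adjusted p 0.0203 in edgeR). Both other genes of the run were lower with lignin than on cellobiose by a like amount (-1.09 and -0.96) and had 4-group differences of -0.05 and -0.18 that were not called.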

How the data were processed

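Ribosomal RNA was removed from total RNA with a kit for yeast and the rest made into stranded libraries, per the labels' protocols. The authors deposited raw counts of reads per gene, unnormalized. FastQC, Bowtie2, Bowtie and HTSeq appear in the submitters' processing notes. Versions, settings and build were not given in the sources used here. Summary entries (5 in each library) were left out of library sizes and tests; they held 45.8% to 48.7% of all counts with 4HBA and 12.7% to 14.2% with syringic acid. Counts of the 15 T. versicolor libraries were fitted with edgeR 4.0.16 in R 4.3.3 (TMM, default expression filter, 1 mean per group, quasi-likelihood F-test, two-sided). Adjusted p-values are Benjamini-Hochberg over 12295 genes; the biological coefficient of variation was 0.110. The 15 libraries of the other species were not used. An exact permutation test of 3 libraries against 3 cannot go below p = 0.1, and none was used.

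A count of 0 allows up to 3 counts, or 0.180 to 0.205 CPM with 4HBA and 0.0768 to 0.119 CPM with syringic acid; such limits cover counting error only. TMM factors were 0.649 to 0.714 and 1.42 to 1.51, so CPM values are relative. No replicate was a copy of another (chi-square per gene 14.9 to 61.5 between replicates). The fit was tested on simulated data, drawn with 1 mean per gene and fold changes added in the syringic acid libraries. The simulation held no shift between library types and no trend with gene length, so it does not cover them. DESeq2 1.42.0 served as an alternative.

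Named genes were all symbols, the 10 largest differences in each direction with a mean of at least 10 CPM, no overlap and the same call with the 6 libraries alone, the 6 largest also called in the 4-group difference, the 10 with most counts, and the longest neighbour runs. As the 10 largest falls were the absent gene models, the next 10 were added after their values were seen. Members and lists were chosen with earlier results of these data known. The 12 lists planned on product names matched 0 genes, because no product names were at hand. Gene lengths and neighbours come from the RefSeq table of assembly Trametes versicolor v1.0. No sequence was at hand, and none is printed.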

Additional observations from a re-analysis of the deposited data

How the results depend on the processing

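The count of 5929 genes ranged from 4678 with the 6 acid libraries alone to 6783 with upper-quartile scaling (a shift of 0.16 in the median over all genes), and from 4839 to 6040 with 1 library left out. The share of higher genes among those called was 54.4%, 72.5% with upper-quartile scaling, 47.6% with RLE scaling, 47% with DESeq2, 44.7% with the 6 libraries alone, 47.1% without the 10 absent gene models and 47.9% with an offset per length class, the last 2 chosen after seeing the data. The 907 genes at 2-fold ranged from 782 to 1176. The 4-group count of 1155 was 1476 with DESeq2 and 794 to 1716 with 1 library left out, the highest without syringic acid replicate 2 and the lowest without 4HBA replicate 1. With 1 library left out, 4HBA against cellobiose called 1265 to 1772 genes (lowest without 4HBA replicate 1), against 2011 in full. Syringic acid against lignin called 525 to 2258, against 1075 in full: 646, 2258 and 547 without syringic acid replicates 1, 2 and 3, and 525 and 696 without lignin replicates 1 and 2. Genes called in the same direction with both acids against their neighbours numbered 81 to 244 (higher) and 60 to 191 (lower). The cause was not tested. Only values of named genes that had passed the test in the main fit were recomputed. For the largest differences the same call with the 6 libraries alone was also a naming condition, so the share that held was in part set by the choice. Of 1637 recomputed values, 1595 had the same direction and call, 0 changed sign and 42 no longer passed the test. These touched 8 of the 21 called symbols (MnP1s, MnP6s, LiP2, LiP3, TvLac3, TvLac4, VP3at and HTP1), the 4-group call of MnP4s and the falls of TRAVEDRAFT_53315. LiP2 lost it in 10 alternatives, HTP1 only with upper-quartile scaling (-0.30). No paired analysis was possible because the labels give the libraries no shared replicate numbers. Library type, as read from the make-up of the libraries, and acid remain confounded between both sets of 3 libraries.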
